A study of Mus musculus with 59 samples.

Results

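The nuclear-encoded respiratory chain genes of mouse embryonic stem cells (ESCs) were described before and after transcription was stopped. They were taken by gene symbol: every symbol that starts with Nduf followed by a, b, c, s or v, with Uqcr, with Cox4 to Cox8 or with Atp5, and the symbols Sdha to Sdhd. This gave 92 of 23974 genes in the table of normalised read counts, of which 66 averaged 10 or more across the 12 libraries used and were tested. By the complex to which each product belongs, the 66 were 29 of 36 complex I subunits, 3 of 8 complex I assembly factors, 4 of 4 complex II subunits, 8 of 8 complex III subunits, 11 of 18 complex IV subunits, the related gene Ndufa4l2, and 10 of 15 complex V subunits. Cox7a2l, a factor of supercomplex assembly, and Atp5s, a coupling factor, complete the 92 and were not tested. Ndufa4, named for complex I, was counted with complex IV, where its product sits. The complex III subunit gene Cyc1 falls outside the symbol rule and is described with the other genes of the pathway.

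The RNA decay experiment of the series used 12 of its 59 samples. Total RNA, cleared of ribosomal RNA with the KAPA RiboErase kit, was sequenced from wild-type (control) and Zcchc8 knockout (KO) ESCs after 0, 4 and 8 h in 5 µg/ml Actinomycin D, an inhibitor of transcription, with 2 libraries in each of the 6 groups. All cells came from blastocysts of the BDF1 strain and were grown with serum, LIF, CHIR99021 and PD0325901, and ERCC spike-in RNA was added. Zcchc8 is the scaffold of the nuclear exosome targeting complex, which passes nuclear RNA to the exosome. The labels do not say which part of Zcchc8 was removed, whether the KO cells were 1 clone. Nor do they say that replicates came from different cultures. The p-values therefore rest on a library-to-library spread that could be technical.

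The respiratory chain moves electrons from NADH (complex I) and succinate (complex II) through complex III to complex IV, which reduces oxygen, and complex V uses the proton gradient so made to form ATP. Most of its subunits are encoded in the nucleus, translated in the cytosol and imported into mitochondria, where assembly factors join them to the few subunits made from mitochondrial DNA. Naive mouse ESCs draw on both glycolysis and respiration, and transcripts of such housekeeping metabolic genes are known as a long-lived class.

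The libraries held 465324 to 1364523 counted reads, and 1 read was worth 0.452 to 3.23 units of the authors' normalised read count, the unit of all values below. Zcchc8 checked the labels in part: its values were 59.3 and 77.5 in control 0 h and 25.3 and 5.29 in KO 0 h (log2 change −2.42, adjusted p = 0.0332; here and below from limma, with the Benjamini-Hochberg method over 6952 genes). At 4 h they were 32.7 and 24.7 in control and 21.3 and 13.6 in KO (log2 −0.71, adjusted p = 0.845). At 8 h they were 7.57 and 11.3 in control and 9.56 and 3.78 in KO, which overlapped (log2 −0.53, adjusted p = 0.638), so Zcchc8 does not check the genotype labels of the 8 h libraries. The KO 8 h replicates stood apart from each other, with a chi-square per degree of freedom of 13.3 between their reads against 3.50 to 4.19 in the other groups. Stem cell genes were present (at 0 h, Pou5f1 at 186 to 303 and Sox2 at 611 to 1134), although Esrrb and Tcl1 were listed at 0 in every library and Nanog in all but 1. Summed over 20 fibroblast marker genes, of which 3 (Sparc, Postn and Pdgfrb) were at 0 in every library, the value was 6377 to 10598 in control 0 h and 15278 to 19971 in KO 0 h. At 4 h it was 9261 to 11107 and 18790 to 20292, and at 8 h 8207 to 10267 and 11915 to 14803. On the deposited scale these sums were thus higher in KO at each time. As a share of the total value without Rn45s, they were 0.826% to 0.924% in control and 1.23% to 1.60% in KO at 0 h, 1.40% to 1.49% and 2.27% to 2.47% at 4 h, and 2.28% to 2.32% and 1.58% to 2.44% at 8 h, where the genotypes overlapped. Of 8 neural markers, 2 (Pax6 and Map2) were at 0 in every library, and the summed value was 88.2 to 162 in control and 272 to 364 in KO at 0 h, 119 to 169 and 228 to 312 at 4 h, and 101 to 112 and 137 to 193 at 8 h. As shares, the neural sums also overlapped between the genotypes at 8 h (0.0254% to 0.0281% and 0.0182% to 0.0319%). The part of these markers in the comparisons of KO with control was not tested. In such bulk RNA, fewer cells of a type and less RNA per cell cannot be told apart.

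Of the 26 genes that were not tested, 10 were at 0 in all libraries: Atp5f1, Atp5g3, Atp5j, Cox6a2, Cox7a2l, Cox8c, Ndufs1, Ndufs5, Ndufs6 and Ndufs8. Such a 0 was not read as absence of the RNA, because the core subunit gene Ndufs1 and the b-subunit gene Atp5f1 encode parts that every chain needs. Whether the 0 of the other genes, such as Cox6a2 and Cox8c, reflects absent RNA was not tested. Of the 80 genes with 1 transcript row 65 were tested, and of the 12 with several rows 1 was (Ndufv3). Cox4i1, the common form of cytochrome oxidase subunit 4, and Atp5c1, the central stalk of ATP synthase, were among the latter, with mean values of 0.281 and 1.42. The table as used here held 0 rows for mitochondrially encoded subunits.

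Respiratory chain RNA took a larger share of the library after transcription stopped. Without Rn45s, the ribosomal RNA precursor, the 92 genes held 0.652% and 0.589% of reads in the control 0 h libraries, 0.850% and 0.893% at 4 h, and 0.948% and 0.952% at 8 h. In KO the shares were 0.548% and 0.596% at 0 h, 0.917% and 0.812% at 4 h, and 0.914% and 0.598% at 8 h. Every 4 h library lay above every 0 h library in both genotypes. At 8 h the control libraries were higher still, whereas KO 8 h replicate 2 was back at the level of KO 0 h, so the KO value at 8 h rests on which replicate is read.

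The summed value did not move with the share. Over the 92 genes it was 4501 and 7555 in control 0 h, 5301 and 7066 at 4 h, and 3409 and 4213 at 8 h, and in KO it was 6856 and 7395, then 6966 and 7264, then 5539 and 4513. The 0 h and 4 h libraries overlapped in both genotypes, and both 8 h libraries were below them. Complex V gave the largest part of the sum at every time (1767 and 2943 in control 0 h), followed by complex I (1227 and 2113), complex IV (698 and 963), complex III (473 and 904) and complex II (195 and 294).

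**Figure D1:**
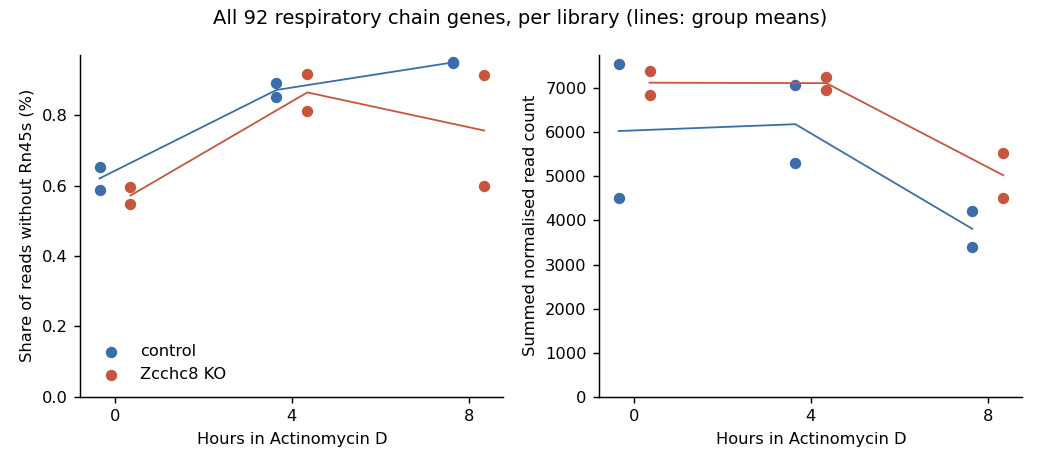
Left, percent of reads held by all 92 respiratory chain genes after Rn45s was left out; right, their summed normalised read count; both against hours in Actinomycin D. Points are libraries and lines join group means; the control means of the share are 0.620% at 0 h and 0.950% at 8 h, the summed value is lower at 8 h than at 0 h, and the 8 h KO libraries lie far apart.

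The median tested respiratory chain gene kept 106% of its 0 h value at 4 h and 63.1% at 8 h in control, and 102% and 67.3% in KO, as ratios of group means. For all tested genes the same medians were 66.8% and 36.3% in control and 61.8% and 45.1% in KO. Between genes the spread was wide, from 6.46% (Cox7a1) to 197% (Ndufc1) left at 8 h in control and from 19.4% (Ndufaf3) to 132% (Cox5b) in KO.

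From 0 to 8 h in control, 17 of the 66 genes fell and 0 rose on the deposited scale (limma, adjusted p below 0.05), which is 25.8% against 53.5% of all 6952 tested genes called lower and 0.503% called higher. Their median log2 change was −0.58, against −1.33 for all tested genes, and 54 of 66 (81.8%) lay above the median gene. In KO 5 of 66 (7.58%) fell and 0 rose, against 40.5% lower and 0.0575% higher of all tested genes, with medians of −0.56 and −1.15 and 58 of 66 (87.9%) above the median gene. After TMM scaling, which puts the bulk of genes near 0, the direction flipped: 27 rose and 1 (Cox7a1) fell in control, and 11 rose and 0 fell in KO, with medians of 0.88 and 0.59 beside 0.10 and −0.00 for all tested genes. Each of the other 16 genes called lower in control on the deposited scale had no call as lower under TMM. Of all genes 12.3% rose and 10.5% fell under TMM in control, and 4.93% and 5.64% in KO.

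The control count rests on single libraries. Leaving out control 0 h replicate 2 or control 8 h replicate 1 gave 3 genes, leaving out control 8 h replicate 2 gave 10, and leaving out control 0 h replicate 1 gave 33. For KO the number was 0 when replicate 2 of KO 0 h was left out, 1 when replicate 1 of KO 0 h or replicate 2 of KO 8 h was, and 11 when either control 0 h library was. The KO median moved from −0.56 to −0.81 without KO 8 h replicate 1 and to −0.33 without KO 8 h replicate 2, and the control median ran from −0.999 to −0.36 over the same kind of omission. As a description free of any test, both 8 h libraries lay below both 0 h libraries for 36 of 66 genes (54.5%) in control and 40 of 66 (60.6%) in KO, against 73.8% and 78.0% of all tested genes. They lay above for 1 gene in each genotype (1.52%, against 1.73% and 0.806%).

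On the deposited scale the medians moved mainly between 4 and 8 h, while under TMM scaling they moved mainly before 4 h, and upward (0.75 in control and 0.79 in KO from 0 to 4 h, 0.11 and −0.13 from 4 to 8 h). From 0 to 4 h in control the median change of the 66 genes was 0.12, against −0.49 for all tested genes, with 3 genes lower (Cox7a1, Ndufa4l2 and Ndufaf3) and 1 higher (Ndufc1), while 11.8% of all genes fell and 0.489% rose. Both 4 h libraries lay above both 0 h libraries for 14 of 66 genes in control (21.2%, against 5.38% of all tested genes) and for 13 in KO (19.7%, against 3.81%), and below for 7 and 14 (10.6% and 21.2%, against 39.3% and 62.8%). Under TMM scaling 16 members rose and 0 fell in control (6.24% of all genes each way), and 13 rose and 0 fell in KO (4.65% and 4.21%). In KO the median over the same hours was 0.01 against −0.68, and limma called 0 genes (3 at an unadjusted p below 0.05), beside 14.4% lower and 0.0288% higher of all tested genes. From 4 to 8 h the median of the 66 genes was close to that of all genes, at −0.71 against −0.79 in control and −0.51 against −0.45 in KO. In that second interval limma called 0 members in either genotype (13 and 6 at an unadjusted p below 0.05), beside 4.63% of all genes lower in control and 0.0288% in KO.

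Between the complexes, the median change from 0 to 8 h in control was −0.30 for complex IV, −0.53 for complex III, −0.54 for complex V, −0.56 for complex I and −1.33 for complex II. In KO it was −0.36 for complex III, −0.47 for complex IV, −0.53 for complex V, −0.58 for complex I and −0.60 for complex II. Complex II, with 4 genes, thus stood at the median of all tested genes in control and near the other complexes in KO, a difference that was not tested. The 3 tested complex I assembly factors had medians of −1.86 and −1.22. Cytosolic ribosomal protein genes, another class of housekeeping transcripts, had medians of −0.65 in control and −0.44 in KO (78 genes), proteasome subunit genes −0.85 and −0.79 (30 genes), and mitochondrial ribosomal protein genes −1.30 and −1.19 (63 genes). Of the genes whose products work in the mitochondrion, the chain subunits and the ribosomal proteins therefore had unlike medians on the deposited scale, and under TMM scaling the order was the same in control (0.88 for the respiratory chain and 0.12 for the mitochondrial ribosome).

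**Figure D2:**
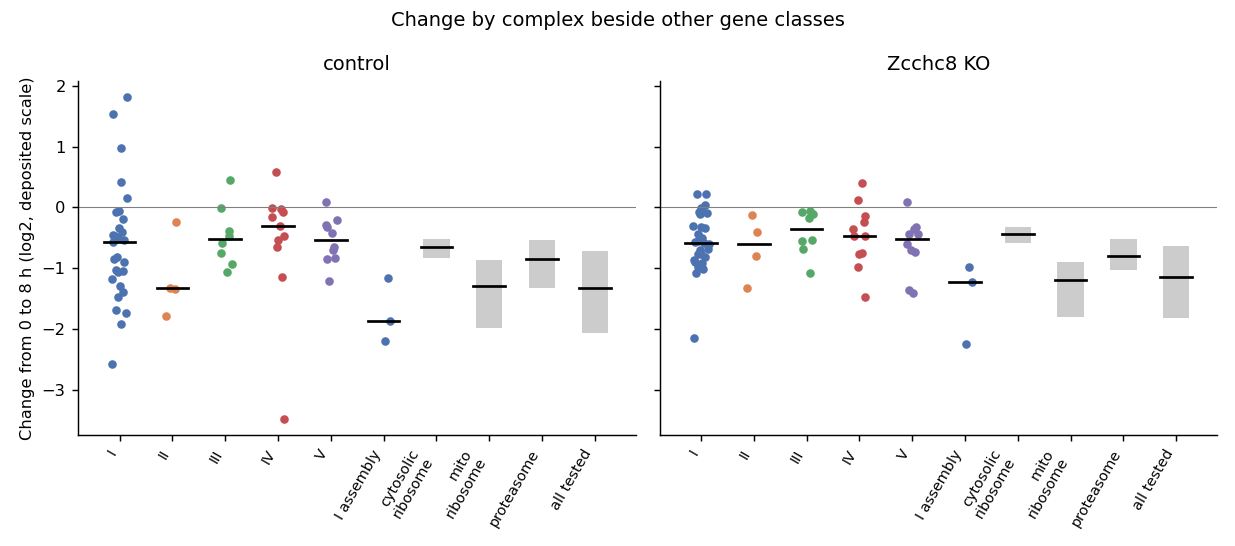
Log2 change from 0 to 8 h in Actinomycin D on the deposited scale, in control (left) and Zcchc8 KO (right). Points are single tested genes of each complex, black lines are medians, and grey boxes run from the first to the third quartile of the comparison classes; the medians of complexes III, IV and V lie above the median of all tested genes (−1.33 and −1.15).

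In complex I, which oxidises NADH, 9 of 29 tested subunits fell from 0 to 8 h in control and 1 of 29 in KO. The highest were the accessory subunits Ndufb8 and Ndufa10, with mean values of 174 and 133 over the 12 libraries. Ndufb8 was 105 and 165 in control 0 h, 164 and 254 at 4 h, and 105 and 148 at 8 h, and in KO 182 and 217, 206 and 246, and 143 and 149. Its control libraries overlapped between 0 and 8 h, while both KO 8 h libraries were below both KO 0 h libraries, and neither change was called (log2 −0.08 and −0.44, adjusted p = 0.864 and 0.339, where TMM turned the control change to 1.40 with adjusted p = 0.000378).

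Ndufv3, an accessory subunit of the arm that takes electrons from NADH, fell in both genotypes on the deposited scale. With TMM scaling Ndufv3 was not called from 0 to 8 h (limma, log2 −1.19 in control and −1.04 in KO, adjusted p = 0.14 and 0.251). It was 42.1 and 80.8 in control 0 h, 15.3 and 31.7 at 4 h, and 5.40 and 14.5 at 8 h. In KO it was 33.7 and 35.3, then 15.7 and 11.6, then 9.56 and 5.04. All later libraries were below all 0 h libraries of their genotype. The log2 change from 0 to 8 h was −2.58 in control (SE 0.644, adjusted p = 0.00125) and −2.15 in KO (adjusted p = 0.00869), and the control change was no longer called without control 8 h replicate 1 (−1.94, adjusted p = 0.0555). The KO call was lost without either KO 0 h library or without KO 8 h replicate 2 (−1.75, adjusted p = 0.0636 in the last).

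The core subunit Ndufs3 and the accessory subunit Ndufs4 fell in control, with log2 changes of −1.74 and −1.92 (adjusted p = 0.0166 and 0.00969). Ndufs3 read 22.4 and 51.7 in control 0 h and 5.40 and 16.3 at 8 h, but 28.6 and 38.8 in KO 0 h and 32.5 and 30.2 at 8 h. Its KO libraries overlapped between the times, and the difference between the genotypes' changes was not called (log2 1.65, SE 0.865, adjusted p = 0.85). The other complex I subunits called lower in control were Ndufa2, Ndufa8, Ndufab1, Ndufb9, Ndufb10 and Ndufc2, with log2 changes from −1.06 to −1.69. Under TMM scaling 4 of these 6 (Ndufa8, Ndufab1, Ndufb9 and Ndufb10) had positive changes, from 0.06 to 0.41.

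Ndufc1, Ndufa9 and Ndufb2, subunits at or near the membrane arm, had the most positive changes in control, and each rests on a 0 h library with very few reads. Ndufc1 had 9 reads in control 0 h replicate 1 and 0 in replicate 2 (11.9 and 0 as values), and 19 and 29 reads at 8 h (10.3 and 13.1). Without replicate 2 its log2 change went from 1.81 (adjusted p = 0.0501) to −0.03 (adjusted p = 0.979). Ndufa9 had 1 read in control 0 h replicate 1 and 12 in replicate 2 (1.32 and 38.8), and its log2 change of 1.54 was −0.51 without replicate 1 and 3.59 without replicate 2.

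Among the complex I assembly factors, which are needed to build the complex and are not part of it, Ndufaf3 fell in both genotypes on the deposited scale. With TMM scaling Ndufaf3 was not called from 0 to 8 h (limma, log2 −0.81 in control and −1.12 in KO, adjusted p = 0.44 and 0.332). It was 10.5 and 96.9 in control 0 h, 8.73 and 3.86 at 4 h, and 8.11 and 4.97 at 8 h, against 43.8 and 51.1, 13.5 and 13.6, and 9.56 and 8.82 in KO. The control 0 h libraries were far apart, yet both lay above the later ones, and the KO libraries of each time agreed closely. The log2 changes were −2.19 (SE 0.757, adjusted p = 0.0151) and −2.25 (adjusted p = 0.0181), and the control change shrank to −0.65 (adjusted p = 0.556) without control 0 h replicate 2, and was not called without control 8 h replicate 2 (−1.88). The KO call was lost without KO 0 h replicate 1 (−2.36) or replicate 2 (−2.14, adjusted p = 0.0936). Ndufaf7, a methyltransferase that modifies a core subunit, fell in control (log2 −1.86, adjusted p = 0.0456) and was not called in KO (−1.22, adjusted p = 0.2). The exons of Ndufaf3 overlap those of Impdh2 on the opposite strand by 48 nucleotides in the GRCm38 annotation. Of the 66 tested genes 19 have such a partner, including Ndufa4l2 (Shmt2), Atp5a1 (Haus1) and Ndufs3 (Kbtbd4), and because no source used here states whether counting was by strand, reads of partners cannot be told apart.

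Complex II, succinate dehydrogenase, also serves the citric acid cycle. Its flavoprotein gene Sdha was 105 and 90.4 in control 0 h, 122 and 194 at 4 h, and 83.2 and 81.8 at 8 h, and in KO 190.3 and 189, 179 and 172, and 160.0 and 128. Both 8 h libraries were below both 0 h libraries in each genotype, by little in control, and the change was not called (log2 −0.24 and −0.40, adjusted p = 0.596 and 0.382, with 1.23 and adjusted p = 0.00779 in control under TMM). The iron-sulfur subunit Sdhb fell in control, from 47.4 and 84.0 to 19.5 and 31.2 (log2 −1.32, SE 0.461, adjusted p = 0.0158), although TMM turned this to 0.13. The call for Sdhb was also lost without control 0 h replicate 2 (−0.92) or control 8 h replicate 1 (adjusted p = 0.183).

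Sdhc, a membrane anchor of complex II, was 25.0 and 74.3 in control 0 h, 21.8 and 37.1 at 4 h, and 6.49 and 21.2 at 8 h. In KO it was 101 and 52.9, then 35.9 and 32.9, then 27.4 and 30.2. The 8 h libraries were below the 0 h libraries in both genotypes, and limma called the control change (log2 −1.78, SE 0.567, adjusted p = 0.00892) and not the KO change (−1.32, adjusted p = 0.0584). The control call was lost without control 0 h replicate 2 (−1.01) and without control 8 h replicate 1 (−0.99, adjusted p = 0.255).

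Sites in 3′ untranslated regions are shown for genes at both ends of this range, because ATTTA, which marks AU-rich elements, is a sequence known to draw decay factors to short-lived mRNAs. They were read from the GENCODE vM21 transcripts of GRCm38 and are written 5′ to 3′ with ATTTA in capitals. The first shows bases 2142 to 2171 of the Sdhc 3′ region of 2636 bases, with a run of 3 overlapping copies that starts at base 2150. The others stand in Ndufaf3, Ndufa4l2, Cox7a2 and Atp5b.
Sdhc: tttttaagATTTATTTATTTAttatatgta
Ndufaf3: ggataataATTTAtactcctc
Ndufa4l2: acaatttcATTTAacaaattg
Cox7a2: ggatcaatATTTAttgatgtg
Atp5b: tgaagagtATTTAaagttttc

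Searched on the transcript strand, ATTTA was found in 28 of the 65 tested respiratory chain genes with a matched transcript (43.1%), against 66.3% of 6116 other tested genes. Both sets hold only genes with 1 transcript row. The nonamer of AU-rich elements, TTATTTA followed by A or T at both next positions, contains ATTTA and was found in 2 (3.08%), Sdhc and Atp5a1, against 15.4%. Of the 28 genes with ATTTA, 9 were called lower from 0 to 8 h in control (median log2 change −0.59), and of the 37 without it 7 were (−0.56), while in KO 2 of 28 (−0.69) and 2 of 37 (−0.55) were. The difference between these groups was not tested. Sdhc had 7 copies, Atp5b 4, Cox7a2 1, and Cox7a1 and Ndufs3 0. The 3′ regions of these genes had a median of 175 bases, against 999 in the other tested genes.

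The transcripts themselves are short, with a median of 732 nucleotides against 3000.5 in other tested genes, a coding region of 432 against 1365, and 4 exons against 9. Medians of the change were also compared within bands of like length. For transcripts up to 600 nucleotides the median log2 change from 0 to 8 h in control was −0.54 for 20 respiratory chain genes and −1.10 for 89 others, and for 600 to 900 nucleotides −0.54 (18 genes) and −0.87 (213). For 900 to 1500 nucleotides it was −0.59 (14) and −1.16 (653), and for 1500 to 3000 −0.59 (11) and −1.30 (2103), but above 3000 it was −1.42 for the 2 respiratory chain genes and −1.38 for 3058 others. In KO the same bands gave −0.58 and −0.93, −0.45 and −0.81, −0.50 and −0.91, −0.74 and −1.13, and −0.70 and −1.24. Among the 65 genes the rank correlation of the control change with transcript length was −0.222 and with 3′ length −0.0268, a description over genes that share libraries. Per 1000 nucleotides of transcript, the median level of the 65 genes over the 12 libraries was 70.2, against 13.4 for other tested genes, with Atp5b highest (490.4) and Ndufaf7 lowest (8.20).

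In complex III, which passes electrons from ubiquinol to cytochrome c, 0 of 8 genes were called from 0 to 8 h in either genotype (1 at an unadjusted p below 0.05 in each). Uqcrc1, a core protein of the complex, was 167 and 365 in control 0 h, 207 and 278 at 4 h, and 143 and 189 at 8 h, and in KO 307 and 354, 299 and 293, and 271 and 154. Control libraries of 0 and 8 h overlapped and those of KO did not (log2 −0.59 and −0.69, adjusted p = 0.201 and 0.151, with 0.90 and adjusted p = 0.0259 in control under TMM). Uqcrh, the hinge protein that helps bind cytochrome c, was 84.3 and 132 in control 0 h and 57.8 and 66.9 at 8 h, and 116 and 129 in KO 0 h and 120.0 and 113 at 8 h. Its KO libraries overlapped between the times, with changes of −0.76 in control and −0.07 in KO (adjusted p = 0.103 and 0.889).

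Complex IV, cytochrome c oxidase, held genes with changes close to 0 and the gene with the largest fall of all 66 in control; 2 of its 11 tested subunits fell in control (Cox7a1 and Cox6c) and 0 in KO (1 at an unadjusted p below 0.05). Cox6a1, the broadly expressed form of subunit 6a, was 83.0 and 155 in control 0 h, 116 and 192 at 4 h, and 92.4 and 126 at 8 h, and in KO 219 and 190.4, 207 and 204, and 142 and 152. Cox5b, a subunit on the matrix side, was 81.7 and 126 in control 0 h and 90.8 and 109 at 8 h, and 80.8 and 108 in KO 0 h and 139 and 110 at 8 h. For both genes the control libraries of 0 and 8 h overlapped, and the log2 changes were −0.07 and −0.03 in control and −0.47 and 0.40 in KO, none of them called (adjusted p = 0.876, 0.956, 0.318 and 0.389). TMM turned the control changes to 1.41 and 1.45 (adjusted p = 0.000411 and 0.000972).

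Subunit 7a is made in a heart and muscle form by Cox7a1 and in a broadly expressed form by Cox7a2. In control the change of Cox7a1 was called and that of Cox7a2 was not, a difference between the genes that was not tested. Cox7a1 was 26.3 and 84.0 in control 0 h, 13.8 and 5.41 at 4 h, and 2.16 and 4.97 at 8 h (4 and 11 reads). Cox7a2 was 32.9 and 58.1, then 50.9 and 85.0, then 37.3 and 41.1. Every later control library of Cox7a1 was below every 0 h library, while those of Cox7a2 overlapped. The log2 change from 0 to 8 h in control was −3.47 for Cox7a1 (SE 0.649, adjusted p = 4.32e-05) and −0.16 for Cox7a2 (SE 0.461, adjusted p = 0.772). The fall of Cox7a1 kept its call in each of 19 alternatives, with −2.20 (adjusted p = 0.012) under TMM.

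In KO, Cox7a1 was 69.1 and 70.5 at 0 h, 15.1 and 41.7 at 4 h, and 24.9 and 23.9 at 8 h. The 8 h libraries were below the 0 h libraries, as for 78.0% of all tested genes. Its KO change from 0 to 8 h was not called by limma (log2 −1.48, adjusted p = 0.0625, with −0.33 and adjusted p = 0.767 under TMM). At 8 h both KO libraries were above both control libraries (log2 2.55, SE 0.649, adjusted p = 0.0139), which made Cox7a1 the 1 respiratory chain gene of 66 called higher in KO at that time, beside 4.88% of all tested genes. The call was lost without control 8 h replicate 1 (2.09, adjusted p = 0.265), without KO 8 h replicate 2 (2.57, adjusted p = 0.105) and under TMM (2.03, adjusted p = 0.0937). The difference between its changes in KO and control was not called (log2 1.99, SE 0.917, adjusted p = 0.812). Of the other paralogue pairs, Cox8a was tested while its muscle form Cox8b (mean 4.72) and Cox8c (0) were not, Cox6b1 and Cox7b were tested while the testis forms Cox6b2 (0.0807) and Cox7b2 (0.520) were not, and Cox4i2 had a mean of 3.88.

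Ndufa4l2, a paralogue of the oxidase subunit Ndufa4 known as a hypoxia-induced gene, fell in both genotypes on the deposited scale. With TMM scaling Ndufa4l2 was not called from 0 to 8 h (limma, log2 −0.80 in control and −0.97 in KO, adjusted p = 0.422 and 0.385). It was 43.5 and 64.6 in control 0 h, 7.28 and 16.2 at 4 h, and 7.57 and 14.9 at 8 h, and in KO 20.2 and 42.3, 20.2 and 18.4, and 14.0 and 2.52. Control libraries dropped by 4 h and stayed there, while the KO 4 h libraries lay just below KO 0 h (log2 from 0 to 8 h −2.21 and −2.06, adjusted p = 0.00789 and 0.0177). The control change was no longer called without control 0 h replicate 2 (−1.93) or control 8 h replicate 1 (−1.76, adjusted p = 0.114), and the KO change was −1.01 (adjusted p = 0.293) without KO 8 h replicate 2. Ndufa4 itself was 55.3 and 32.3 in control 0 h and 43.2 and 41.1 at 8 h, which overlapped (log2 −0.00, adjusted p = 0.992).

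**Figure D3:**
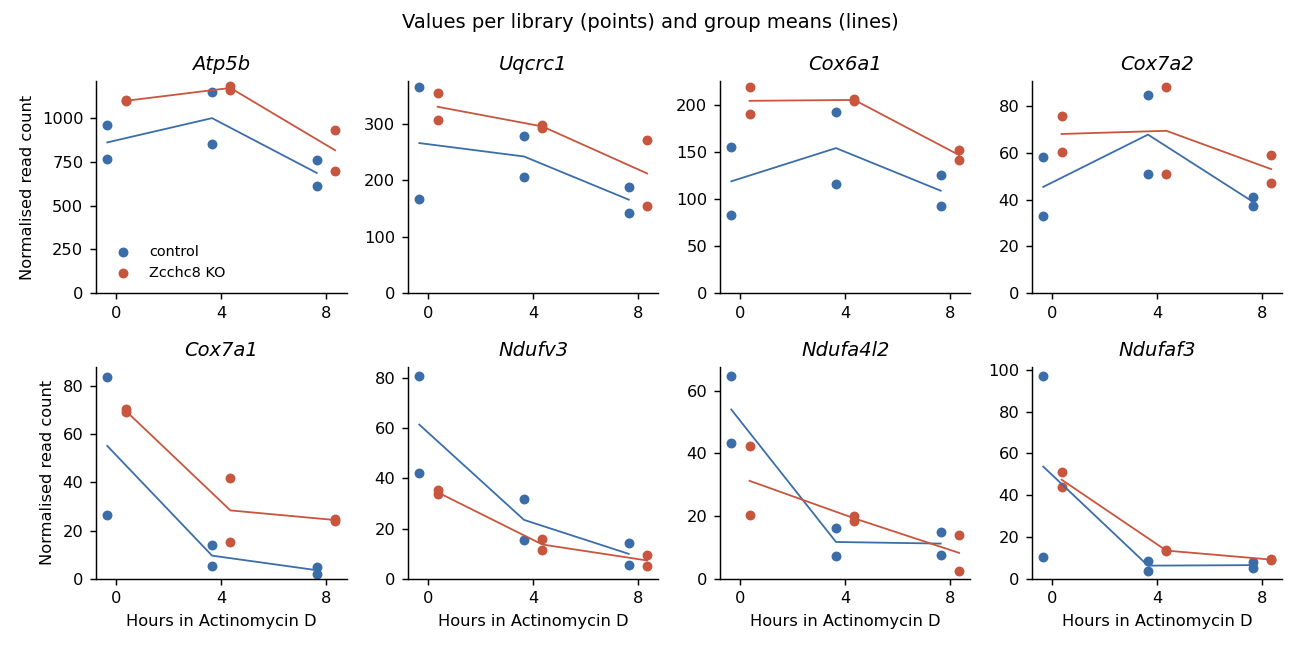
Normalised read count of 8 respiratory chain genes against hours in Actinomycin D, with 1 point per library and lines through group means. The 4 genes of the upper row kept 62.3% to 91.6% of the control 0 h mean at 8 h, and the 4 of the lower row 6.46% to 20.8%.

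Promoters are shown for the subunit 7a pair and for Cox6a1, because nuclear respiratory factor 1 (NRF1) and ETS family factors are known to act on promoters of this class. Each runs from 250 bases before to 50 after the RefSeq gene start (GRCm38.p6), on the strand of the gene. Capitals mark the NRF1 consensus palindrome (the longer run in Cox6a1) and the ETS word CCGGAAG or its reverse complement CTTCCGG.
Cox7a1, chr7:30183921-30184220, plus strand: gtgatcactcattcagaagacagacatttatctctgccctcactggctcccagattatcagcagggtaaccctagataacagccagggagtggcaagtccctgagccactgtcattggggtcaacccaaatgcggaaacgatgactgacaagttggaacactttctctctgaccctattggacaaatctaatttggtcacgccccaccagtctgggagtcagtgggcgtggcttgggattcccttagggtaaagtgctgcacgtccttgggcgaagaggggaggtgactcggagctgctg
Cox7a2, chr9:79759804-79760103, minus strand: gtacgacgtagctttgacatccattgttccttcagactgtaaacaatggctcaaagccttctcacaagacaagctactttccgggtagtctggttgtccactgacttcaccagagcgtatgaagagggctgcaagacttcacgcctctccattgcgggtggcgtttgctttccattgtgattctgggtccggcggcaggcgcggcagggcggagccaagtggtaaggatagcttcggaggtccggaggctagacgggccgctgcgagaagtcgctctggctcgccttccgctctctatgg
Cox6a1, chr5:115348909-115349208, minus strand: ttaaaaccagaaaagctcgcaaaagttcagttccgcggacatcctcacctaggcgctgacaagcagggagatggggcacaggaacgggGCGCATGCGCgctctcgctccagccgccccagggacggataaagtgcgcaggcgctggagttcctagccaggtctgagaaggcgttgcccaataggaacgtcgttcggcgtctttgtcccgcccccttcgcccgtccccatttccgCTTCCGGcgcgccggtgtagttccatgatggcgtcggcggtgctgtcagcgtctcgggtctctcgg

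The Cox6a1 window holds both words and the subunit 7a windows hold neither, which says only that these letters are not in them. Searched on both strands, the NRF1 palindrome was found in 5 of the 56 tested respiratory chain genes with a promoter sequence (8.93%). These were Atp5g2, Atp5k, Cox6a1, Ndufa11 and Uqcrc1. The palindrome was found in 2.24% of 5453 tested genes and in 1.07% of all 27025 genes with a promoter sequence. CCGGAAG was found in 25.0%, 21.4% and 9.93%, and the consensus of YY1, a further activator of such promoters, in 5.36%, 2.16% and 0.755%.

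In complex V, the ATP synthase, 1 of 10 genes fell in control (Atp5h, a stalk subunit, log2 −1.22, adjusted p = 0.0151, but 0.26 under TMM) and 2 of 10 in KO (Atp5e and Atp5g2). Atp5b, the catalytic beta subunit and the highest gene of the whole chain, was 764 and 959 in control 0 h, 852 and 1149 at 4 h, and 612 and 762 at 8 h. In KO it was 1101 and 1097, then 1162 and 1184, then 935 and 698. The 8 h libraries were just below those of 0 h in both genotypes, with log2 changes of −0.33 (SE 0.357, adjusted p = 0.433) and −0.44 (adjusted p = 0.296), which TMM turned to 1.16 and 0.73 (adjusted p = 0.00125 and 0.0429). Atp5a1, the alpha subunit, was 443 and 820.5 in control 0 h and 362 and 405 at 8 h, and 532 and 525 in KO 0 h and 377 and 266 at 8 h, without overlap in either genotype and without a call (log2 −0.65 and −0.74, adjusted p = 0.132 and 0.104).

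Atp5g2, which encodes the membrane c-subunit, was the only tested member of its family, since Atp5g1 and Atp5g3 had means of 0.51 and 0. It was 29.0 and 45.2 in control 0 h and 17.3 and 41.1 at 8 h, which overlapped, but 84.2 and 95.2 in KO 0 h and 41.4 and 26.5 at 8 h, which did not. The KO change was called (log2 −1.41, SE 0.494, adjusted p = 0.0228) and the control change was not (−0.42, adjusted p = 0.461), and their difference was not called (−0.98, adjusted p = 0.888). Atp5e, the epsilon subunit of the central stalk, fell in KO from 60.6 and 74.1 to 37.0 and 17.6 (log2 −1.35, adjusted p = 0.0291), and its change was −0.84 (adjusted p = 0.253) without KO 8 h replicate 2. The calls of both genes were lost without any 1 of KO 0 h replicate 1, KO 0 h replicate 2 and KO 8 h replicate 2.

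**Figure D4:**
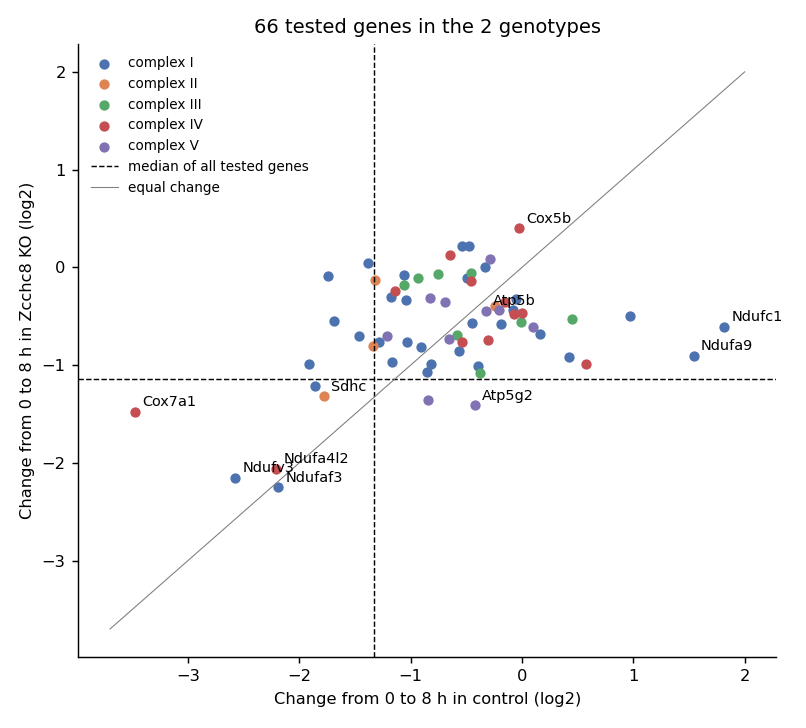
Log2 change from 0 to 8 h of the 66 tested genes in control (horizontal) and in Zcchc8 KO (vertical), coloured by complex, with dashed lines at the median of all tested genes. Most points lie to the right of and above those lines (54 and 58 of 66), and Cox7a1, Ndufv3, Ndufa4l2 and Ndufaf3 lie farthest to the lower left.

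In untreated cells, 1 of 66 genes was called higher in KO than in control and 0 lower, against 4.23% and 0.0719% of all tested genes (limma; 12 members at an unadjusted p below 0.05, and 0 calls by edgeR and DESeq2). The called gene was Ndufc1, with 9 and 0 reads in control 0 h against 18 and 10 in KO 0 h (values of 11.9 and 0 against 30.3 and 17.6), and without the library at 0 its log2 change of 2.75 was 0.91 (adjusted p = 0.362). The call was lost in 7 of the 12 fits that left out 1 library. The median of the 66 genes was 0.31, against 0.44 for all tested genes, and TMM brought it to −0.08 beside 0.04, with 0 members called where 1.73% of all genes were higher and 0.388% lower. The control 0 h libraries decided the size of this shift, since without replicate 1 the median was −0.21 with 5 genes called higher, and without replicate 2 it was 0.73 with 8 called higher.

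At 4 h limma, edgeR and DESeq2 called 0 of 66 genes in either direction (1 at an unadjusted p below 0.05, Cox7a1), against 0.748% of all genes higher and 0 lower (0.877% and 0.216% under TMM). The medians were 0.23 and 0.29, and the first of these moved to 0.055 when control 4 h replicate 1 was left out and to 0.43 when replicate 2 was. The smallest p-values belonged to Cox7a1 (log2 1.43, adjusted p = 0.445), Cox8a (0.89, adjusted p = 0.517) and Ndufa8 (0.99, adjusted p = 0.586). Cox8a, a small subunit of complex IV, was above control in both KO libraries at each time: 104 and 125 against 50.1 and 38.8 at 0 h, 117 and 98.8 against 48.0 and 68.7 at 4 h, and 89.2 and 50.4 against 22.7 and 39.8 at 8 h. It was called at none of them (adjusted p = 0.0687, 0.517 and 0.121). Both KO libraries were above both control libraries for 37.3%, 37.0% and 55.3% of all tested genes at these times. Under TMM scaling the changes of Cox8a were 0.95, 0.64 and 0.44, none of them called.

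At 8 h the median of the 66 genes was 0.43 against 0.63 (0.25 without KO 8 h replicate 1 and 0.56 without KO 8 h replicate 2), with Cox7a1 the call described above and 0 genes lower (8 at an unadjusted p below 0.05, all tested genes 0.0144% lower). Both KO libraries were above both control libraries for 36 of 66 genes (54.5%), against 55.3% of all tested genes, and below for 0. Under TMM the median was −0.27 beside −0.05, and Atp5a1 was called lower (log2 −0.98, adjusted p = 0.0258), beside 0.302% of all genes lower and 1.40% higher. The change from 0 to 8 h differed between the genotypes for 0 of 66 genes by limma, edgeR and DESeq2 (3 at an unadjusted p below 0.05), against 0.0144% of all genes more positive in KO and 0 more negative, with medians of 0.17 and 0.18. The smallest p-values were those of Cox7a1 (1.99), Ndufc1 (−2.42) and Ndufa9 (−2.44), each with an adjusted p of 0.812.

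**Figure D5:**
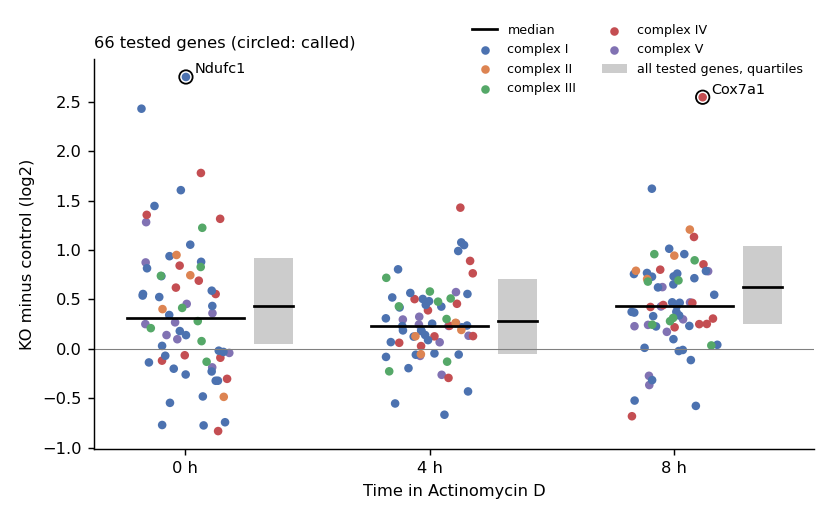
Log2 difference between Zcchc8 KO and control at 0, 4 and 8 h for the 66 tested genes, coloured by complex, with medians as black lines and grey boxes from the first to the third quartile of all tested genes. The medians of 0.31, 0.23 and 0.43 lie inside the boxes, and the circled points are the genes called, Ndufc1 at 0 h and Cox7a1 at 8 h.

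Other genes of the pathway were listed by their known roles. Of the tested genes listed as electron carriers, Cycs (cytochrome c) and Cyc1 (cytochrome c1) had log2 changes from 0 to 8 h in control of −0.90 and −0.80 (adjusted p = 0.064 and 0.0848), and 1 of 4, Etfdh, fell (−1.85). Cytochrome c1 is itself a subunit of complex III that the symbol rule did not take. Of 22 tested assembly factors outside the symbol rule, 10 fell in control and 7 in KO, with medians of −1.09 and −1.31, among them the oxidase assembly factors Cox20 (−2.83 and −2.44) and Cox11 (−2.01 and −1.33). Of 16 citric acid cycle and pyruvate dehydrogenase genes, 8 fell in control and 1 (Idh3b, −1.69) in KO. Of 12 regulators of respiratory genes, 8 fell in control and 5 in KO, with medians of −1.41 and −1.07, and the coactivator gene Pprc1 had the smallest p (−3.23 and −2.74). Of 9 glycolysis genes, 3 fell in each genotype, with medians of −0.56 and −0.68, and of 7 coenzyme Q synthesis genes 1 fell in control and 2 in KO. The ATP synthase inhibitor Atpif1 fell in both (−1.03 and −1.09, adjusted p = 0.0315 and 0.0305). All of these counts are on the deposited scale, on which 53.5% of all tested genes fell in control and 40.5% in KO, and under TMM scaling the control medians of these lists ranged from −0.06 for the regulators to 0.93 for glycolysis.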

How the data were processed

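The authors deposited 1 table of normalised signal per transcript, and its columns for 12 of the 59 samples were used; the other 47 samples were not analysed here. Per the submitters' processing notes, TopHat2 2.1.1, HTSeq 0.6.0, DESeq2 and the mm9 build were used, with their roles not stated. The deposited signal values are counts divided by a factor per library: with those factors 100% of values came out as whole reads (within 0.001), at a depth of 465324 to 1364523 reads. The table held 0 spike-in rows, so the basis of the scaling was not checked, and depth limits genes with few reads.

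Of 33896 rows, 978 exact repeats were dropped, and the remaining 32918 transcripts were summed by gene symbol. Genes with a mean value of 10 or more (6952) were fitted together as log2(value + 1), over all 12 libraries and 6 groups, with limma 3.58.1 in R 4.3.3. P-values were adjusted with the Benjamini-Hochberg procedure over all tested genes, and an adjusted p below 0.05 was called; the code was tested on simulated data. The added 1 shrinks the fold changes of low genes. A library with 0 or 1 read, averaged in logs, can instead enlarge them, as for Ndufc1 and Ndufa9 in control 0 h. Count tests ran on the recovered reads: edgeR 4.0.16 (quasi-likelihood, with the authors' scaling) called 14 genes higher and 3770 lower from 0 to 8 h in control, and DESeq2 1.42.0 with its own size factors called 586 and 825. TMM scaling, a pseudocount of 5, no filter, a mean of at least 50, a replicate block, a fit of the compared groups only and the omission of each library were the other alternatives. Summaries used Python 3.11.15 with pandas 2.3.3.

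The genes and lists were chosen with earlier results of these data known. Genes were named by rule: the 2 highest per complex, those called between genotypes or else the 3 with the smallest p, the 3 with the most negative and the 3 with the most positive change over 8 h, paralogue families, and up to 2 genes per further list. Ndufs3, Ndufs4, Ndufaf7, Ndufa4, Sdhc, Atp5h and the further genes listed as called were named after their values were seen. Transcripts came from GENCODE vM21 (GRCm38) and promoters from RefSeq (GRCm38.p6), matched by symbol, with 65 and 56 of the 66 tested genes matched. Both builds differ from mm9, so none of their coordinates were joined to the table.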

Additional observations from a re-analysis of the deposited data

Results flagged for a closer look

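For 2 genes the KO libraries lay on opposite sides of the control libraries at different times. The difference between 0 and 4 h was not tested. That between 0 and 8 h was not called by limma (Ndufa8 log2 1.43, adjusted p = 0.85, and Ndufa4l2 0.15, adjusted p = 0.992). Ndufa8, an accessory subunit of complex I, was lower in both KO libraries at 0 h (40.4 and 21.2 against 42.1 and 61.4; log2 −0.78). It was higher in both at 4 h (42.6 and 68.8 against 16.7 and 42.5; log2 0.99) and at 8 h (40.2 and 22.7 against 16.8 and 21.2; log2 0.65). Ndufa4l2, the paralogue of an oxidase subunit, was lower in both KO libraries at 0 h (20.2 and 42.3 against 43.5 and 64.6; log2 −0.83) and higher in both at 4 h (20.2 and 18.4 against 7.28 and 16.2; log2 0.76). At 8 h its libraries overlapped between the genotypes (14.0 and 2.52 against 7.57 and 14.9; log2 −0.68). None of these differences passed the test within its time.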

How the results depend on the processing

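Scaling decided the sign of most results over time. Under TMM scaling 27 respiratory chain genes rose and 1 fell from 0 to 8 h in control (median 0.88), and 11 rose and 0 fell in KO (median 0.59). With DESeq2 these were 20 and 1 (0.73) and 11 and 0 (0.63). The control changes of single genes turned positive under TMM and DESeq2: Sdhb to 0.13 and 0.040, Atp5b to 1.16 and 1.03, Atp5a1 to 0.83 and 0.73, Uqcrc1 to 0.90 and 0.79, Uqcrh to 0.72 and 0.60, Cox6a1 to 1.41 and 1.31, Cox5b to 1.45 and 1.34, Cox7a2 to 1.30 and 1.22, Ndufb8 to 1.40 and 1.29, Ndufa10 to 1.00 and 0.90, and Sdha to 1.23 and 1.02. By construction both scalings centre the bulk of genes near 0. Between genotypes, TMM and DESeq2 gave medians of −0.076 and −0.13 at 0 h and −0.27 and −0.18 at 8 h, with 0 genes higher at either time and 1 lower at 8 h. DESeq2 gave a median of −0.046 at 4 h, and TMM −0.13 for the difference of changes. The calls between genotypes at 0 h went to 0 with edgeR, no filter, a mean of at least 50 and the compared groups alone, and those at 8 h to 0 with no filter and a mean of at least 50. The genes falling in control numbered 7 with no filter, 7 with a mean of at least 50 and 9 with the compared groups alone, and in KO 1, 2 and, with a pseudocount of 5, 8. Without Rn45s the shares of reads were 0.620%, 0.950% and 0.572% in control 0 h, control 8 h and KO 0 h, against 0.525%, 0.947% and 0.488% with it.

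The replicate block gave 4 genes higher in KO at 0 h, 1 gene that rose in control and 10 that fell in KO. Deviations of same-numbered libraries correlated at −0.07 to 0.12 over 15 pairs of groups. Counting noise in genes with few reads lowers such correlations, so they cannot show whether same-numbered libraries shared a culture or day. Leaving out 1 library gave 0 to 8 genes higher in KO at 0 h with medians of −0.21 to 0.73, and 0 to 3 higher at 8 h, with medians of 0.055 to 0.43 at 4 h and 0.25 to 0.56 at 8 h. In control 0 to 3 genes rose and 3 to 33 fell (median −0.999 to −0.36), and in KO 0 to 11 fell (median −0.81 to −0.33). The difference of changes had 0 to 1 genes called lower and medians of −0.24 to 0.45. Changes that reversed ranged from −0.26 to 1.37 for Cox7a1 between genotypes at 0 h, and in control from −0.028 to 3.66 for Ndufc1, −0.51 to 3.59 for Ndufa9, −0.52 to 0.37 for Cox6a1, −0.34 to 0.28 for Cox5b, −0.56 to 0.24 for Cox7a2, −0.40 to 0.24 for Ndufb8 and −0.97 to 0.020 for Ndufa10, and in KO from −0.20 to 0.64 for Ndufa11. Other than the scalings named, the cause was not tested. Over 37 gene results and 718 alternatives, 590 kept direction and side of the threshold, 65 lost a call, 29 gained one and 34 reversed.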
